A study of Mus musculus with 33 samples.

Results

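Srebf1 and 9 enzymes of fatty acid synthesis, 10 genes in all, were read in the hippocampus of Tg2576 mice given the liver X receptor (LXR) agonist TO901317, of Tg2576 mice given vehicle and of wild-type littermates given vehicle. The set is Srebf1 with the enzymes Acly, Acaca, Fasn, Scd1, Scd2, Elovl5, Elovl6, Fads1 and Fads2. Its members are every probe set that the platform annotation names for 1 of these genes alone, which gave 25 of the 45037 probe sets on the array that are not controls. Of the 25, 22 passed a filter on low signals, and the 3 that did not are dim probe sets of Acly. The 10 genes are among 18193 that a probe set names alone.

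RNA came from the right hippocampus of 33 heterozygous Tg2576 or wild-type littermate male mice aged 20 weeks, on a mixed SJL × C57BL/6J background, with 1 Affymetrix MOE430 2.0 array per animal and 11 animals per group. Tg2576 animals express human APP bearing the Swedish mutation of familial Alzheimer's disease from the prion promoter. The treated Tg2576 group received TO901317 by oral gavage at 50 mg per kg per day, and both vehicle groups received the carrier of Tween 80 and sodium carboxymethylcellulose. Dosing lasted 7 days by the design text and 5 days by the treatment protocol, and tissue was taken 1 hour after the last dose. No treated wild-type group is used here, so the response to the drug could be read in Tg2576 mice alone. The human transgene was not checked here.

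LXRs are nuclear receptors for oxysterols that bind DNA with a retinoid X receptor partner. Srebf1 is one of their classic targets, and it encodes SREBP-1, a membrane-bound transcription factor that is released by proteolysis and then switches on fatty acid synthesis in liver and other tissues. In the pathway itself, ATP citrate lyase (Acly) makes cytosolic acetyl-CoA, acetyl-CoA carboxylase 1 (Acaca) turns it into malonyl-CoA, and fatty acid synthase (Fasn) builds palmitate from both. Elovl6 lengthens palmitate, the stearoyl-CoA desaturases Scd1 and Scd2 place the first double bond, and Fads1, Fads2 and Elovl5 desaturate and lengthen polyunsaturated fatty acids. In the brain the pathway supplies membrane lipids, above all to myelinating oligodendrocytes, and Scd2 is the main stearoyl-CoA desaturase of mouse brain.

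Promoter sequences were in the RefSeq table of build GRCm38.p6 for 7 of the 10 genes, with 9 promoters in all, each running from 250 bases before to 50 bases after an annotated start. The 3 shown here are those of Srebf1 and Fasn, which share an LXR element, and of Fads2, the enzyme with the largest difference on drug among those with a sequence. The Srebf1 promoter is that of the start furthest downstream of 3 annotated ones, at chr11:60210422-60210721 on the minus strand. That of Fasn lies at chr11:120824498-120824797 and that of Fads2 at chr19:10101454-10101753, both on the minus strand. Capitals mark an LXR element, TGACCG and TAACCC with 4 bases between them, and the box CCAAT, which the factor NF-Y binds, on either strand.
Srebf1: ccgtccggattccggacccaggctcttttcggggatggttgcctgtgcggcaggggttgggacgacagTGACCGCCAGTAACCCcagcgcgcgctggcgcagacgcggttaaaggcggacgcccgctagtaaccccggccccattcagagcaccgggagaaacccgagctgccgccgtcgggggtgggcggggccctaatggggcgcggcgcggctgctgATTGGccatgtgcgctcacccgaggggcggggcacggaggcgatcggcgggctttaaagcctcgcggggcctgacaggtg
Fasn: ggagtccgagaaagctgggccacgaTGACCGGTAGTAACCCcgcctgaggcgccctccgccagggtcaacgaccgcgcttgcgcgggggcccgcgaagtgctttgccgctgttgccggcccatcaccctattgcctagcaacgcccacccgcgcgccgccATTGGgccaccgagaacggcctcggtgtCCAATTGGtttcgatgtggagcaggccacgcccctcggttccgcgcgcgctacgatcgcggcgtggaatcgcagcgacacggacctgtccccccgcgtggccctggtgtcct
Fads2: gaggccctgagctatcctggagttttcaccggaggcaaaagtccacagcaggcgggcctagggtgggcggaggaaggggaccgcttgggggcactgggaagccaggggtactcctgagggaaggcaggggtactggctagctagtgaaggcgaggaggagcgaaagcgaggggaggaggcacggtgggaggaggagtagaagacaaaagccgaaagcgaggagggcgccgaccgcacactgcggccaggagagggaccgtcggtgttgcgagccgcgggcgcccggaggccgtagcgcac
The element is known from the mouse Srebf1 and Fasn promoters, and it was searched after these sequences had been seen. It began at base 69 in Srebf1 and at base 26 in Fasn, and 3 of all 32851 promoters in the table (0.00913%) held it. CCAAT began at base 221 in Srebf1 and at bases 161, 189 and 192 in Fasn, where the last 2 matches overlap, and 37.4% of all promoters held it. The Fads2 window held neither. None of the 9 promoters held an exact match to TCACNCCAC, 1 form of the sterol regulatory element, found in 1.24% of all promoters. Other forms of that element were not searched, so its absence cannot be read from this. No promoter of the 9 held a pair of AGGTCA with 4 bases between them, found in 0.0152%. The half-site AGGTCA, found in 16.3% of all promoters, stood once in Acly and once in Elovl6. The GC box GGGCGG, found in 35.7% of all promoters, had 2 matches in the Srebf1 promoter shown, 3 in that of another Srebf1 start, 4 in Acly and 1 in Fads2. The single Srebf1 probe set does not tell the 3 starts apart.

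Values are array signals on a linear scale, and differences are in log2(signal + 16), tested with limma over all 27022 probe sets that passed the filter and adjusted by Benjamini-Hochberg. A probe set passed the test at an adjusted p under 0.05. The trimmed mean signal was 99.97 on every array, with medians between 19.4 and 28.9. Vehicle Tg2576 replicates 3 and 4 stood apart in the Gapdh ratio, the log2 signal of the 3' control probe set less that of the 5' one, at 0.11 and 0.08, where the highest of the other 31 arrays was vehicle Tg2576 replicate 5 at -0.08. Results of the vehicle Tg2576 group are therefore given with and without these arrays for some of the probe sets and gene pairs below. Neuronal markers were present in the labelled tissue, with all 7 listed genes past the filter and a summed signal with medians of 11701 in treated Tg2576, 11006 in vehicle Tg2576 and 11169 in wild-type animals. In bulk tissue, a change in the number of cells of a type and a change in RNA per cell cannot be told apart.

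Between treated and vehicle Tg2576 mice, Srebf1 and Scd1 rose, and no other probe set of the 10 genes passed the test. These were 2 of 22 probe sets, both higher, against a background of 0.0703% of all probe sets called higher and 0.0703% called lower. At an unadjusted p under 0.05, 12 of 22 passed, 9 higher and 3 lower, against 10.5% of all probe sets. The median difference of the 22 was 0.07, against 0.00 for all probe sets tested, and 12 of the 22 differences lay above 0. For 1 probe set, that of Srebf1, the 2 groups did not overlap, as was the case for 0.0074% of all probe sets.

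Srebf1 (1426690_a_at) had a lowest, median and highest signal of 222, 277 and 358 in treated Tg2576 mice, against 146, 188 and 204.5 in vehicle Tg2576 mice and 124, 169 and 227 in wild-type mice. Every treated animal lay above every vehicle Tg2576 animal, and 10 of 11 lay above the highest wild-type animal. The means were 290.5 ± 46.2 in treated Tg2576, 181 ± 21.97 in vehicle Tg2576 and 174 ± 31.9 in wild-type mice (SD, n = 11 each). The log2 difference was 0.63 (SE 0.09, 95% interval 0.46 to 0.81, limma adjusted p = 0.000164) between treated and vehicle Tg2576 mice. This is 1.55-fold on the scale with 16 added, and its p was the second smallest of all probe sets in that comparison. Without vehicle Tg2576 arrays 3 and 4 the difference was 0.66.

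**Figure D1:**
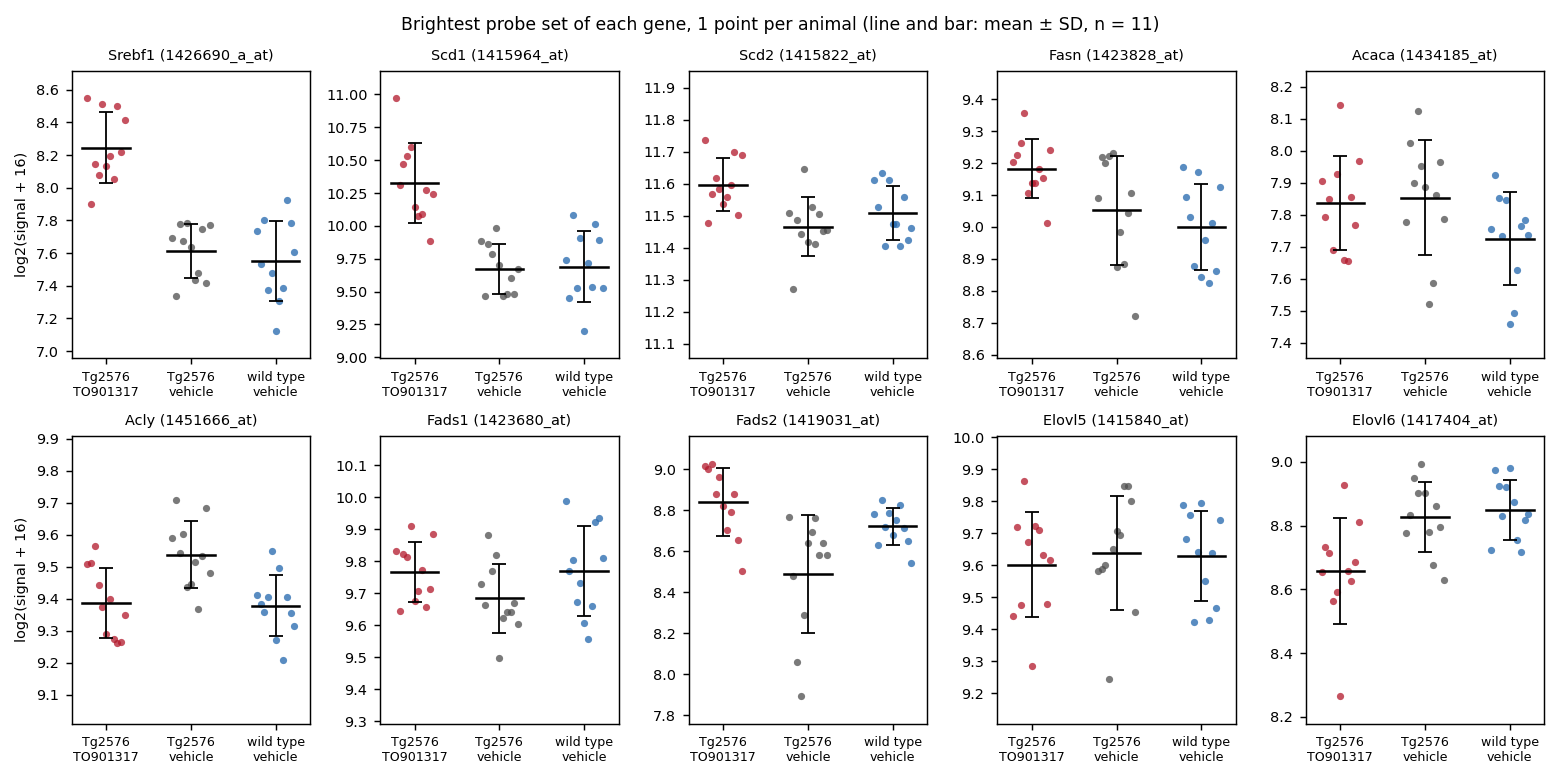
Log2(signal + 16) of the brightest probe set of each of the 10 genes, with 1 point per animal and the mean ± SD of 11 animals as line and bar, in treated Tg2576, vehicle Tg2576 and wild-type mice from left to right. Treated animals stand clear of vehicle Tg2576 animals for Srebf1 and, except for 1 animal, for Scd1, while the groups overlap for the other genes. Each panel has its own range on the vertical axis.

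Scd1, the inducible stearoyl-CoA desaturase, was the other member that rose. Its brighter probe set (1415964_at) had a lowest, median and highest signal of 929, 1224 and 1989 in treated Tg2576 mice, against 690.3, 798.5 and 996 in vehicle Tg2576 mice and 574, 826 and 1067 in wild-type mice. All treated animals but replicate 10, the lowest, lay above the highest vehicle Tg2576 animal, and 9 of 11 lay above the highest wild-type animal. Treated replicate 1 gave the highest value of all. The log2 difference between treated and vehicle Tg2576 mice was 0.66 (SE 0.10, 95% interval 0.45 to 0.87, limma adjusted p = 0.00206). The call was lost with an exact rank-sum test per probe set (adjusted p = 0.0511), the only one of 15 alternatives beside leaving out single arrays in which it did not hold.

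The second Scd1 probe set (1415965_at) was dim, with means of 57.8 ± 21.3 in treated Tg2576, 33.5 ± 12.6 in vehicle Tg2576 and 36.4 ± 8.99 in wild-type mice. Its log2 difference between treated and vehicle Tg2576 mice was 0.57 (95% interval 0.29 to 0.86, limma adjusted p = 0.0799), of like size but past the threshold only without vehicle Tg2576 replicate 8 (limma adjusted p = 0.0405). Across the 33 animals, deviations from the group mean of the 2 Scd1 probe sets correlated with a Pearson r of 0.43, which is given as a description.

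Scd2, the constitutive desaturase of the brain, was among the brightest genes on the array, with its first probe set (1415822_at) at the 99.6th percentile of mean signal. That probe set had a lowest, median and highest signal of 2836, 3053 and 3397 in treated Tg2576 mice, against 2456, 2790.5 and 3190.4 in vehicle Tg2576 mice and 2693.5, 2829.7 and 3162 in wild-type mice. All 11 treated animals lay above the median of vehicle Tg2576 mice, but only 3 lay above their highest animal. The log2 difference was 0.13 (95% interval 0.05 to 0.21, limma adjusted p = 0.185), and that of the second probe set (1415823_at) was 0.22 (95% interval 0.07 to 0.37, limma adjusted p = 0.262). Neither passed.

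The third Scd2 probe set (1415824_at) had the widest spread among the members and was low on several arrays with a high Gapdh ratio. It read 25.1 and 34.9 in vehicle Tg2576 replicates 3 and 4, and 126 in treated replicate 11, the treated array with the highest Gapdh ratio at -0.11. It was also low, at 141, in vehicle Tg2576 replicate 2, whose ratio was -0.22. Its log2 difference of 0.69 between treated and vehicle Tg2576 mice had a 95% interval of -0.14 to 1.51 and became 0.11 without vehicle Tg2576 arrays 3 and 4. Without array 5 as well it was -0.02. The part that the Gapdh ratio plays was not tested beyond these fits.

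The difference between Scd1 and Scd2 was tested directly, on their brightest probe sets in the same animals. Scd1 rose on drug by 0.52 more than Scd2 on the log2 scale (SE 0.09), and all 11 treated animals lay above the median vehicle Tg2576 animal for this difference (two-sided permutation test, p = 1e-05, the smallest these resamples can give, adjusted p = 7.5e-05). This is one of 15 such tests, 5 pairs of related genes in 3 comparisons, chosen after the values had been seen and adjusted together. Srebf1 rose by 0.72 more (SE 0.13, adjusted p = 0.0007) than Srebf2, which encodes the SREBP that chiefly drives cholesterol synthesis and differed by -0.09 on its own. The same tests of Fads2 against Fads1 (0.27, SE 0.13, adjusted p = 0.0999) and of Elovl6 against Elovl5 (-0.13, SE 0.08, adjusted p = 0.189) did not pass. Without vehicle Tg2576 arrays 3 and 4 these were 0.12 (adjusted p = 0.267) and -0.06 (adjusted p = 0.496). Acaca less Acacb, the carboxylase linked to fatty acid oxidation, gave -0.43 (SE 0.15, adjusted p = 0.0327). That is under the threshold, but no call is read from this pair. Acacb was dim, with mean signals of 19.01 in treated and 10.4 in vehicle Tg2576 mice, the second under the filter limit of 13.9, and did not pass on its own (log2 difference 0.41, limma adjusted p = 0.315), while Acaca differed by -0.02.

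Fads2, the delta-6 desaturase, came next in the order of differences. Its brightest probe set (1419031_at) had a lowest, median and highest signal of 347, 455 and 505.5 in treated Tg2576 mice, against 222, 368 and 419.9 in vehicle Tg2576 mice and 357, 406 and 446 in wild-type mice. The treated group overlapped both others, and 8 of 11 treated animals lay above the highest vehicle Tg2576 animal. The log2 difference between treated and vehicle Tg2576 mice was 0.35 (SE 0.08, 95% interval 0.19 to 0.51, limma adjusted p = 0.0585). Between treated Tg2576 and wild-type mice it was 0.12 (95% interval -0.05 to 0.28, limma adjusted p = 0.780). Vehicle Tg2576 mice lay below wild-type mice, with -0.23.

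The Fads2 difference between treated and vehicle Tg2576 mice stood at the edge of the threshold and depended on which arrays and probe sets entered. It passed when 1 probe set per gene was tested (limma adjusted p = 0.0422), when the dimmest 60% of probe sets were left out (0.0456), and without vehicle Tg2576 replicate 1 (0.0369), vehicle Tg2576 replicate 8 (0.0364) or treated replicate 11 (0.0272). The 3 vehicle Tg2576 arrays with the highest Gapdh ratio, replicates 3, 4 and 5, had the 3 lowest Fads2 signals of the group, at 251, 222 and 297. The difference was 0.24 without arrays 3 and 4 and 0.20 without all 3 (limma adjusted p = 0.138 and 0.192 in this order).

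A second Fads2 probe set (1449325_at) followed the first closely across the 33 animals, with a Pearson r of 0.83 between their deviations from the group mean. Its log2 difference was 0.55 (95% interval 0.15 to 0.94, limma adjusted p = 0.289), and became 0.36 without arrays 3 and 4 and 0.21 without arrays 3, 4 and 5. The third (1443838_x_at) was dim, with means of 35.9 ± 5.20 in treated Tg2576, 26.1 ± 7.79 in vehicle Tg2576 and 25.2 ± 7.67 in wild-type mice, and differed by 0.32 (limma adjusted p = 0.227). Its deviations did not follow those of the other Fads2 probe sets, with an r of -0.15 and -0.265.

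**Figure D2:**
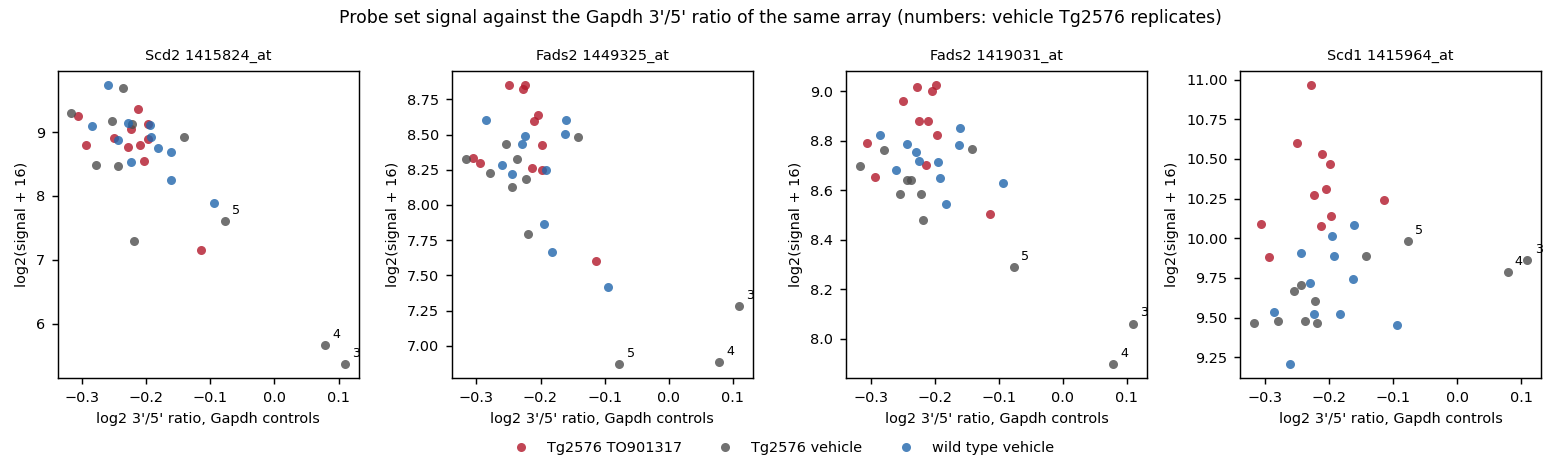
Log2(signal + 16) of 1 Scd2, 2 Fads2 and 1 Scd1 probe set against the Gapdh ratio of the same array, with 1 point per animal. Vehicle Tg2576 replicates 3, 4 and 5, marked by number, have the highest ratios and low signals for the Scd2 and Fads2 probe sets, but not for Scd1 1415964_at.

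Fasn (1423828_at) had a lowest, median and highest signal of 500.0, 565 and 639.8 in treated Tg2576 mice, against 406, 529.5 and 584.5 in vehicle Tg2576 mice and 438, 501 and 567 in wild-type mice. The groups overlapped, although 10 of 11 treated animals lay above the median of either vehicle group. The log2 difference was 0.13 between treated and vehicle Tg2576 mice (95% interval 0.01 to 0.25, limma adjusted p = 0.413) and 0.18 between treated Tg2576 and wild-type mice (95% interval 0.07 to 0.30, limma adjusted p = 0.262). The Fasn promoter shares its LXR element with Srebf1, as printed above. The size of its difference on drug was not tested against that of Srebf1.

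The enzymes before and after fatty acid synthase gave no call. Acly (1451666_at) had a lowest, median and highest signal of 597, 648 and 741 in treated Tg2576 mice, against 645, 726 and 821 in vehicle Tg2576 mice and 576, 652 and 732 in wild-type mice. The log2 difference was -0.15 between treated and vehicle Tg2576 mice (95% interval -0.25 to -0.06, limma adjusted p = 0.200) and 0.16 between vehicle Tg2576 and wild-type mice (95% interval 0.06 to 0.25, limma adjusted p = 0.176). The other 2 tested Acly probe sets had the same signs, with -0.12 and -0.14 in the first comparison and 0.13 and 0.20 in the second. Treated Tg2576 and wild-type mice differed by 0.01 (95% interval -0.09 to 0.10). The 3 dim Acly probe sets had mean signals of 11.7, 9.67 and 4.08 over all arrays and were not tested.

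Elovl6 (1417404_at), which makes stearate from palmitate, had a lowest, median and highest signal of 292, 388 and 471 in treated Tg2576 mice, against 379.8, 439.8 and 494 in vehicle Tg2576 mice and 405, 441 and 489 in wild-type mice. In 8 of 11 treated animals the signal was below the lowest wild-type animal, and in 4 of 11 below the lowest vehicle Tg2576 animal. The log2 differences were -0.17 between treated and vehicle Tg2576 mice (95% interval -0.28 to -0.06, limma adjusted p = 0.227) and -0.19 between treated Tg2576 and wild-type mice (95% interval -0.30 to -0.08, limma adjusted p = 0.185). A second probe set (1417403_at) gave -0.09 and -0.20 in the same comparisons with wider intervals, and the dim one (1442656_at), with group means of 17.9 in treated Tg2576, 18.6 in vehicle Tg2576 and 12.1 in wild-type mice, gave -0.02 and 0.31.

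Acaca, Elovl5 and Fads1 differed least between treated and vehicle Tg2576 mice. Acaca (1434185_at) averaged 214 ± 24.1 in treated Tg2576, 217 ± 28.1 in vehicle Tg2576 and 196.5 ± 20.7 in wild-type mice (SD, n = 11 each), and its log2 difference on drug was -0.02 (95% interval -0.15 to 0.12). Elovl5 (1415840_at), the elongase of polyunsaturated fatty acids, averaged 766 ± 87.5, 786 ± 94.7 and 779 ± 76.7 in the same order of groups, and its log2 difference on drug was -0.04 (95% interval -0.17 to 0.10). Fads1 (1423680_at), the delta-5 desaturase, averaged 857 ± 56.2, 809 ± 62.4 and 860.4 ± 85.2, and its log2 difference on drug was 0.08 (95% interval -0.02 to 0.18). The intervals of these 3 genes leave out a difference as large as that of Srebf1 or Scd1. The second probe sets gave -0.12 for Acaca (1427595_at), -0.03 for Elovl5 (1437211_x_at) and 0.05 for Fads1 (1440444_at).

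Between vehicle Tg2576 and wild-type mice no member passed the test in either direction (0 of 22), against 0.0703% of all probe sets called higher and 0.0888% called lower by limma. At an unadjusted p under 0.05 the count was 6 of 22, 5 higher and 1 lower, against 9.7% of all probe sets. No member separated the 2 groups without overlap, against 0.0259% of all probe sets. An exact rank-sum test also called none. Of the 6, 3 were the Acly probe sets given above. The others were the dim probe sets of Acaca (0.22) and Elovl6 (0.32) and the Fads2 probe set 1419031_at (-0.23, limma adjusted p = 0.294), which became -0.08 without vehicle Tg2576 arrays 3, 4 and 5. Srebf1 differed by 0.06 (95% interval -0.11 to 0.24) and Scd1 by -0.02 (95% interval -0.23 to 0.19).

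Treated Tg2576 mice differed from wild-type mice in Srebf1 (log2 difference 0.69, SE 0.09, 95% interval 0.52 to 0.87, limma adjusted p = 1.87e-05) and Scd1 (0.64, SE 0.10, 95% interval 0.43 to 0.85, limma adjusted p = 0.00178). These were 2 of 22, both higher, against 0.0703% of all probe sets called higher and 0.074% called lower. At the unadjusted limit 9 of 22 passed, 8 higher and 1 lower, against 8.2% of all probe sets. No member separated the groups without overlap, against 0.0148% of all probe sets. Genotype and drug differ together here, and the treated and wild-type arrays are those of the other comparisons.

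**Figure D3:**
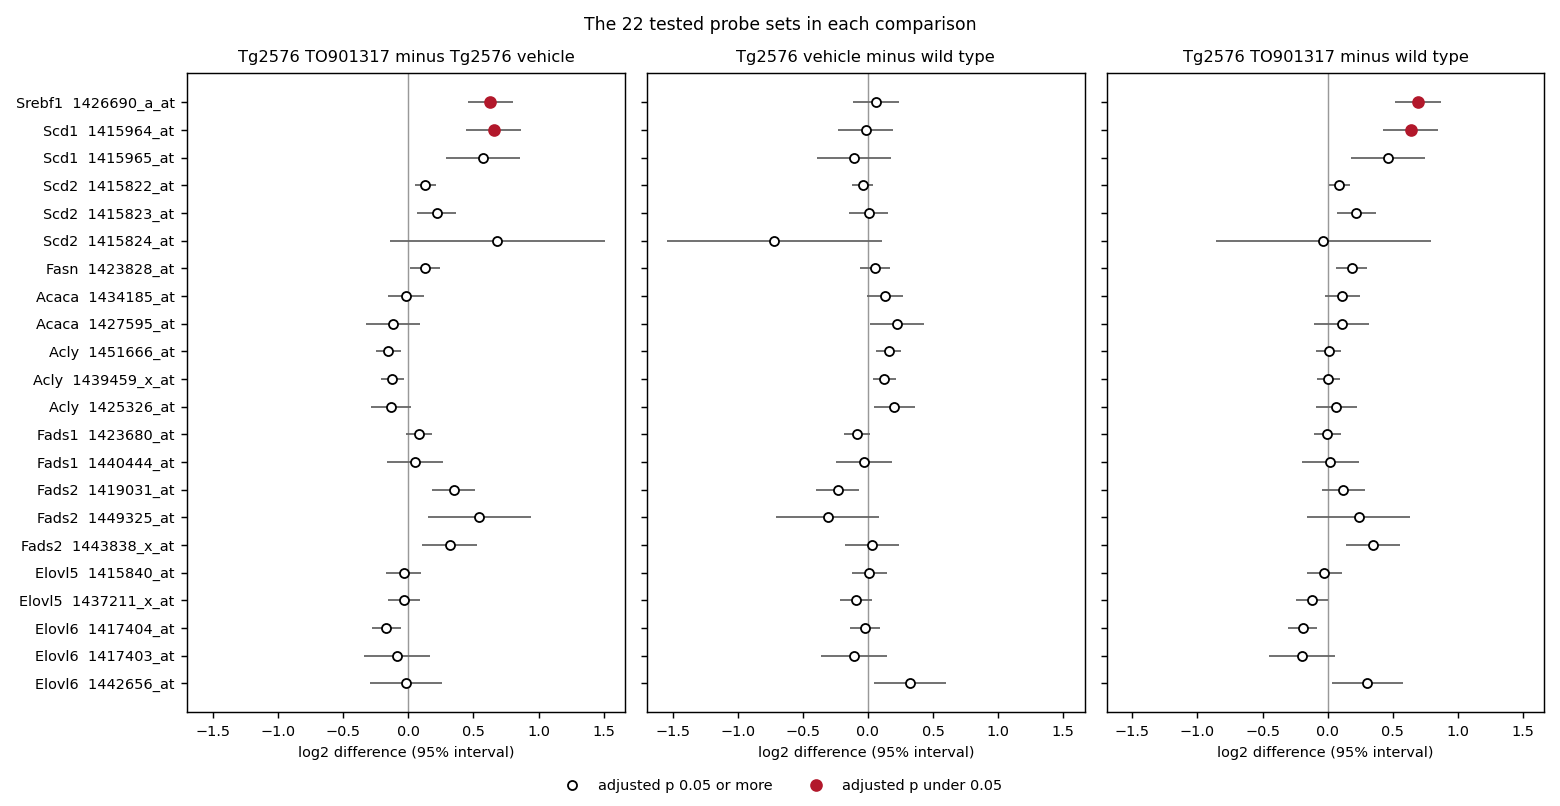
Log2 difference with its 95% interval for the 22 tested probe sets in each comparison. Filled points passed the test. Srebf1 and Scd1 1415964_at stand between 0.63 and 0.69 in both comparisons of treated animals and near 0 between vehicle Tg2576 and wild-type mice.

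Between treated and vehicle Tg2576 mice, genes that surround the set gave no call for most of the pathway. Each gene is represented here by its brightest probe set. Among 18 other tested genes of fatty acid synthesis, elongation and desaturation, 0 passed between treated and vehicle Tg2576 mice by limma. At an unadjusted p under 0.05 the count was 2, against 10.5% of all probe sets. The median log2 difference was 0.05, against -0.01 for all genes. The smallest p was that of Mid1ip1, which promotes polymerisation of acetyl-CoA carboxylase, with 0.22 (limma adjusted p = 0.0949). Likewise 0 of 10 genes of acetyl-CoA and NADPH supply passed (1 unadjusted), 0 of 16 of fatty acid activation and glycerolipid assembly (1 unadjusted) and 0 of 10 of fatty acid oxidation (0 unadjusted). Their smallest p belonged to Idh1 (-0.31, limma adjusted p = 0.416), Lpin2 (-0.18, limma adjusted p = 0.147) and Cpt1a (0.13, limma adjusted p = 0.657). Of the 18 genes named first, 0 passed in the other comparisons too. At the unadjusted limit 7 did between treated Tg2576 and wild-type mice, against 8.2% of all probe sets. Between vehicle Tg2576 and wild-type mice 5 did, against 9.7%. The median log2 differences were -0.004 and -0.04 in this order.

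Of the 6 genes that hold back, escort or cleave SREBP, 0 passed by limma between treated and vehicle Tg2576 mice (1 unadjusted), and Insig2, which retains SREBP in the endoplasmic reticulum, had the smallest p (0.17, limma adjusted p = 0.306). Between vehicle Tg2576 and wild-type mice Insig1 differed by 0.31 (limma adjusted p = 0.0531) and Srebf2 by 0.26 (limma adjusted p = 0.172). Of 4 tested LXR and RXR genes 0 passed (1 unadjusted, Rxra with 0.19). Of 9 other LXR targets, 2 rose: Abca1, a cholesterol efflux transporter, by 0.61 (SE 0.08, limma adjusted p = 0.000164) and Abcg1, its partner in efflux, by 0.42 (limma adjusted p = 0.000981). Of all probe sets 0.0703% were called higher. All 9 targets lay above 0, with a median of 0.17, against -0.01 for all genes. Between treated Tg2576 and wild-type mice Abca1 (0.55) and Apoc1, an apolipoprotein (0.71, limma adjusted p = 0.0464), passed. Abcg1 did not pass there.

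No oligodendrocyte or astrocyte marker passed the test between treated and vehicle Tg2576 mice, though the median summed signals of both lists were higher in treated animals. Of 11 oligodendrocyte and myelin genes 0 passed by limma (1 unadjusted), with a median log2 difference of 0.09, and their summed signal ran between 9177 and 12813 in treated Tg2576, 7001.5 and 12738 in vehicle Tg2576 and 8961 and 13766 in wild-type mice. The medians of that sum were 10497, 9685 and 10697 in the same order. Of 8 astrocyte genes 0 passed between treated and vehicle Tg2576 mice. At an unadjusted p under 0.05 the count was 3, against 10.5% of all probe sets, and 4 of the 8 differences lay above 0. The summed signal of astrocyte genes ran between 6624 and 8730.2, 6377 and 7675, and 6703 and 8898 in the same order, with medians of 7382, 6783 and 7903. The bicarbonate transporter Slc4a4 of that list fell by 0.27 in vehicle Tg2576 against wild-type mice (limma adjusted p = 0.00279). There, 6 of the 8 had an unadjusted p under 0.05, with a median of -0.17, against 9.7% of all probe sets. So did 3 of 11 oligodendrocyte and myelin genes (median -0.16), 3 of 6 precursor genes (-0.20) and 4 of 6 meningeal fibroblast genes (0.38). Between treated Tg2576 and wild-type mice 1 of the 8 astrocyte genes passed, with a lower signal. One endothelial gene of 6, the transporter Slco1a4, rose by 0.42 in treated against vehicle Tg2576 mice (limma adjusted p = 0.025). None of 6 oligodendrocyte precursor, 5 microglial, 7 neuronal, 6 choroid plexus and 6 meningeal fibroblast genes passed in that comparison by limma (0, 0, 1, 0 and 0 at the unadjusted limit). The summed signal of choroid plexus genes varied most between animals, between 945 and 8618 in treated Tg2576, 165 and 7360 in vehicle Tg2576 and 371 and 10224 in wild-type mice. Its medians were 2993 in treated Tg2576, 1431 in vehicle Tg2576 and 1473 in wild-type mice, and all 6 choroid plexus genes had a difference above 0 between treated and vehicle Tg2576 mice, with a median of 0.35. Its part in the results was not tested. With oligodendrocyte and astrocyte scores as covariates, the log2 differences between treated and vehicle Tg2576 mice were 0.58 for Srebf1 (limma adjusted p = 6.77e-05) and 0.61 for Scd1 (limma adjusted p = 0.000168).

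Within groups, animals with more Srebf1 signal also had more signal of some of the enzymes. Each animal was taken as its deviation from its group mean, and 9 relations with Srebf1 were tested over 33 animals with two-sided permutation tests. Scd1 had a Pearson r of 0.65 and a Spearman rho of 0.63 (adjusted p = 0.00099 and 0.00189). Fads1, whose group means differed little, had an r of 0.63 and a rho of 0.61 (adjusted p = 0.00104 and 0.00301). Scd2 followed with an r of 0.585 and a rho of 0.57 (adjusted p = 0.00162 and 0.00378), and Acaca with 0.41 for both (adjusted p = 0.0423 and 0.0452). Fasn (r = 0.08), Elovl6 (-0.05), Elovl5 (-0.11), Acly (-0.12) and Fads2 (-0.16) did not pass. The share of all genes with an r this high was not taken, so these relations have no background beside them. Genes outside the set reached an r with Srebf1 of up to 0.76, above that of every enzyme. Animals were permuted freely within groups, and replicate number was not removed from these relations. Same-numbered arrays of different groups deviated together in part, as given in the last section. What this adds to the relations over 33 animals, and to their p-values, was not tested.

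Without the 2 animals farthest from the median of Srebf1, wild-type replicates 6 and 9, r was 0.56 for Scd1, 0.565 for Fads1 and 0.61 for Scd2. For Acaca it was 0.34 and no longer passed (adjusted p = 0.143), so its call, though not most of its size, rests on those animals. With quantile normalization Scd2 had an r of 0.33 and did not pass (adjusted p = 0.129). Within single groups of 11, Scd1 had an r of 0.44 in treated Tg2576 (-0.12 without the 2 animals farthest from that group's median), 0.82 in vehicle Tg2576 (adjusted p = 0.0455 over 27 relations, permutation test) and 0.78 in wild-type mice (adjusted p = 0.0513). Fads1 had 0.46, 0.37 and 0.89 in the same order, the last with an adjusted p of 0.00999 by permutation. In treated Tg2576 mice it was 0.17 without the same 2 animals. Scd2 had 0.74, 0.60 and 0.46 in that order of groups, none of which passed (permutation test, adjusted p = 0.0707, 0.188 and 0.448). Whether r differs between groups was not tested.

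**Figure D4:**
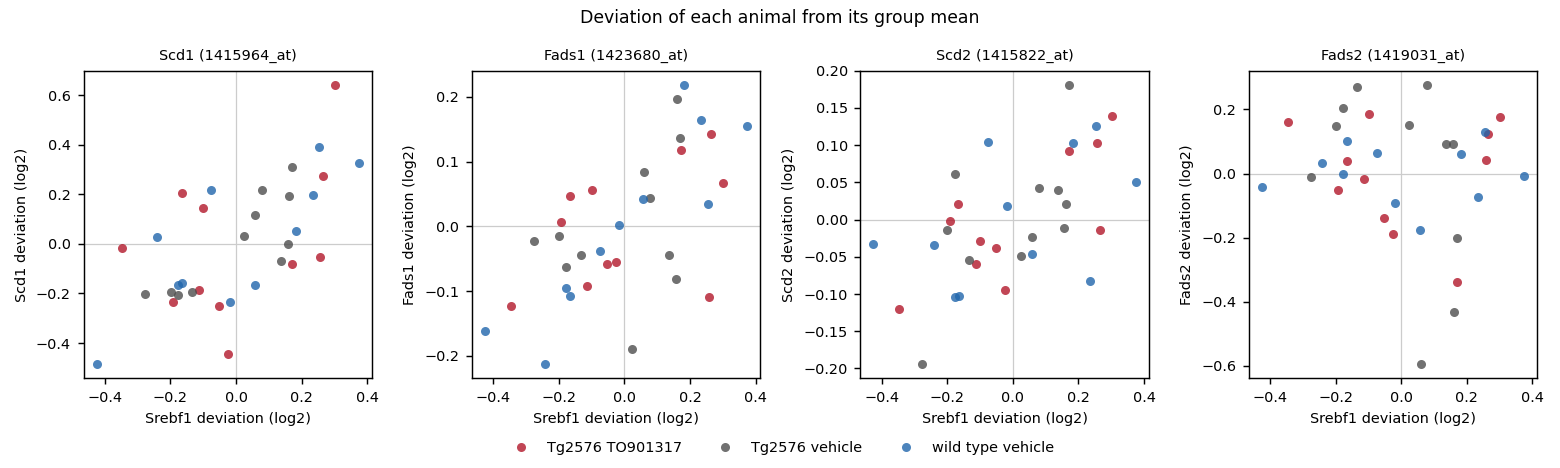
Deviation of each animal from its group mean on the log2 scale, Srebf1 on the horizontal axis and Scd1, Fads1, Scd2 or Fads2 on the vertical axis, with 1 point per animal and colours for the 3 groups. Points rise together for Scd1, Fads1 and Scd2 (r of 0.65, 0.63 and 0.585 over 33 animals), and not for Fads2 (r of -0.16).

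The genes most like Srebf1 and Scd1 in this sense were found among 12755 genes outside the set, as a description over the 33 animals. For Srebf1 they were Mgst1 (r = 0.76), Heph (0.75), Tbc1d2b (0.74), Rhpn2 (0.73) and Eci2 (0.73). For Scd1 they were Rhog (0.74), Atp11b (0.73), Rhou (0.73), Rbl2 (0.73) and Mtmr10 (0.725). None of these 10 passed the test in any comparison, and their differences between treated and vehicle Tg2576 mice ran from -0.06 to 0.09.

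Probe sets of 1 gene agreed to different degrees in these deviations. The pairs with the highest r were those of Fads2 given above, of Elovl5 (0.57) and of Acly 1451666_at with 1425326_at (0.55). The other pairs ran from -0.41, for the 2 of Fads1, to 0.43. A suffix of x in a probe set name marks probes that can match other transcripts, and this holds for 1 tested probe set each of Acly, Fads2 and Elovl5.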

How the data were processed

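Total RNA of 33 right hippocampi was hybridised to 1-colour Affymetrix MOE430 2.0 arrays. The deposited values are linear probe set intensity, which the authors computed with MAS5 per the submitters' processing notes. The MAS5 version, its settings and scan dates are not given in the sources used. The values had been scaled to a common trimmed mean (2% trimmed at each end) of 99.97 on every array. Titles name the samples as biological replicates, so n counts animals. No 2 arrays held identical values. The number of arrays limits the precision.

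Of 45101 probe sets, 64 are controls and were left out. The platform annotation, which can be old, names 1 gene for 34945 of the others, several for 932 and none for 9160. Values were taken as log2(signal + 16), so differences understate changes of dim probe sets. Probe sets in the lowest 40% by mean signal (under 13.9) were left out, leaving 27022. The limma package (version 3.58.1, R 4.3.3) fitted the 3 group means to the 33 arrays (eBayes with trend and robust), with Benjamini-Hochberg adjustment over all probe sets tested and a threshold of 0.05. The steps were tested on simulated data.

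The members, the gene lists and the rule for named genes were chosen with earlier results of these data known. That rule names all 10 members, every gene of the other lists that passed or else that of smallest p, and the 5 genes most like Srebf1 and Scd1. Correlations and pairs of related genes were tested with 100000 permutation resamples, two-sided, in Python 3.11.15. Same-numbered arrays of 2 groups deviated together in some pairs and not in others. Replicate numbers were not used to pair animals in the main fit or in the permutation tests. Gene lists used the brightest probe set of each gene.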

Additional observations from a re-analysis of the deposited data

How the results depend on the processing

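Alternatives covered the pseudocount, the filter, the scaling, the probe set rule, the arrays and covariates in the fit, the variance model, the test and each array left out. One alternative, without vehicle Tg2576 arrays 3, 4 and 5, and those of the gene pairs were chosen after seeing the data. Of 2394 values of single member probe sets under alternatives, 2387 kept their side of the threshold, 1 lost its call (Scd1 under the rank-sum test) and 6 gained one (5 of Fads2 and 1 of Scd1). None turned round with a call, and 95 values that were not called changed sign. Dim probe sets have no value where the filter or the rule of 1 probe set per gene removed them. Srebf1 passed in every alternative in both comparisons of treated animals. The number of member probe sets called between treated and vehicle Tg2576 mice was 2, but 3 with the lowest 60% left out and with 1 probe set per gene, 1 with the rank-sum test and 2 to 4 with single arrays left out.

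Counts over all probe sets moved more. Between treated and vehicle Tg2576 mice 38 were called (19 higher), 59 with the lowest 60% left out, 16 with median centring (12 higher), 2 with the exact rank-sum test, 9 without vehicle Tg2576 arrays 3 and 4, 25 without arrays 3, 4 and 5, and 14 to 51 with single arrays left out. Between vehicle Tg2576 and wild-type mice 43 were called, 25 with only these groups in the fit, 66 with the Gapdh ratio as covariate, 28 with marker scores as covariates, 21 with the rank-sum test and 25 to 58 with single arrays left out. Between treated Tg2576 and wild-type mice 39 were called, 66 with the lowest 60% left out, 59 with the Gapdh ratio and 25 to 61 with single arrays left out. The causes were not tested.

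The relation of Srebf1 with Scd2 had an r of 0.33 under quantile normalization and that with Acaca 0.34 without 2 animals, and neither then passed. The difference between Acaca and Acacb on drug, which is drawn from a dim gene, was -0.41 under quantile normalization (adjusted p = 0.0519, against 0.0327). With replicate number as a block the counts over all probe sets were 38, 50 and 42 in this order of comparisons, and those of members 2, 0 and 2. Between treated and vehicle Tg2576 mice the adjusted p was then 7.8e-06 for Srebf1 and 0.00011 for Scd1. The correlation of deviations between same-numbered arrays had medians of 0.101, 0.059 and 0.07, against means of -0.009, -0.002 and -0.008 for other numbers. It was above 0.1 in 7 of 11, 2 of 11 and 4 of 11 pairs, and 1 of 11 arrays correlated best with its own number in each comparison. Each of these medians was above the mean for other numbers. The rule for pairing animals asked for more than 0.1 in every pair, so the main fit did not use the numbers. That rule is no test of a smaller structure shared by same-numbered arrays, and where such a structure would come from was not tested. Signals of the dimmest member probe sets lie near the filter, and their differences are imprecise.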
